A study of Mus musculus with 6 samples.

Results

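Imprinted genes are transcribed mainly from the copy inherited from one parent, and many of them set the growth of the fetus and placenta. The values of 10 such genes were taken from the livers of high-fat diet (HFD)-fed mice that had undergone either vertical sleeve gastrectomy (VSG), in which the larger part of the stomach is cut away, or a sham operation. The 10 genes were Meg3, Rian, Mirg, Dlk1, H19, Igf2, Igf2r, Cdkn1c, Peg3 and Plagl1. They were chosen by symbol, as genes of the Dlk1-Dio3 and Igf2-H19 regions and imprinted genes often studied with them, from a table of 55385 genes. The choice was made with VSG and sham values of these genes known, so their differences between the groups are given as a description and without p-values.

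RNA with a poly(A) tail was sequenced from about 40 mg of liver per sample, with 3 sham-operated mice (libraries Sham 1 to 3) and 3 VSG-operated mice (libraries VSG 4 to 6). All animals were males, and the study's methods name the strain as wild-type C57BL/6. Both groups were 6 to 8 weeks old when HFD feeding began, received HFD for 10 weeks before the operation and for 12 more weeks after it, and carried no transgene. The comparison asks which liver transcripts differ between VSG and sham animals on the same diet. Counts do not separate the maternal from the paternal copy of a gene. A piece of whole liver holds many cell types, so that fewer cells of a type and less RNA per cell cannot be told apart.

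In the Dlk1-Dio3 region the maternal chromosome makes the long non-coding RNAs (lncRNAs) Meg3, Rian and Mirg, whose transcription unit also gives rise to many microRNAs (miRNAs) and small nucleolar RNAs (snoRNAs), while the paternal chromosome makes Dlk1, a membrane protein of the Notch ligand family. In the Igf2-H19 region the paternal chromosome makes Igf2, a fetal growth hormone, and the maternal chromosome makes the lncRNA H19. Igf2r is a receptor that takes up IGF2 for breakdown in lysosomes, Cdkn1c is the cyclin-dependent kinase inhibitor p57, and Peg3 and Plagl1 are zinc finger proteins. Dlk1, Igf2 and H19 are abundant in fetal mouse liver and are largely shut off in hepatocytes after birth.

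The start regions of 3 of the genes are shown because the values below turn on these genes: Peg3, the only one called different between the groups, Meg3, the first lncRNA of its unit, and Igf2r, the most abundant of the 10. CG pairs, the sites of DNA methylation in mammals, are in capitals. Each window holds 250 bases before and 50 bases after the RefSeq start site (GRCm38.p6), is read 5′ to 3′ on the gene's own strand, and lies at chr7:6730370-6730669 (minus strand), chr12:109540746-109541045 (plus strand) and chr17:12769657-12769956 (minus strand).
Peg3: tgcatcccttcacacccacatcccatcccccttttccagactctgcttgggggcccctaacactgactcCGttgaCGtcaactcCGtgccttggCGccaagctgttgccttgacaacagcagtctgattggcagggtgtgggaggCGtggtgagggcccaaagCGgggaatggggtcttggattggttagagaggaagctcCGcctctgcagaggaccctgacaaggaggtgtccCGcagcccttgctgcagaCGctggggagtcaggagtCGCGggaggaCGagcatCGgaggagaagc
Meg3: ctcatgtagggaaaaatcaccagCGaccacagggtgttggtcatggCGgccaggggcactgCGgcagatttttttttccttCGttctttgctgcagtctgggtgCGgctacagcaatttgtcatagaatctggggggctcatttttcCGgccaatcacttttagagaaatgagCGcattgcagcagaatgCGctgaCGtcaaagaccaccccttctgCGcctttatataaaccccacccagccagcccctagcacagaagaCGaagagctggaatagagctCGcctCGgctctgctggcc
Igf2r: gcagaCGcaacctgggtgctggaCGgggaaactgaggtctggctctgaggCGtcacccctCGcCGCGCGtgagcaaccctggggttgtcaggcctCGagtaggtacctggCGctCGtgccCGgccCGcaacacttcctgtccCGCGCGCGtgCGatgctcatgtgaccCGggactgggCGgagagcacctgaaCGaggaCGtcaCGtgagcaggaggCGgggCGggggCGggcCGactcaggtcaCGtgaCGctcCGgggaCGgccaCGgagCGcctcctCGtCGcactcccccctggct
The Igf2r window held 34 CG pairs, more than 92.3% of the 32851 RefSeq promoter windows of the same length. The Peg3 and Meg3 windows held 13 each, against a median of 7, and 94.6% of all windows held at least 1. The motif TATAAA was found in the Meg3 window, 25 bases before the start site, and in none of the other windows of the 10 genes. It occurred on either strand in 13.6% of all windows. The motif GCCATNTT, also searched on both strands, was in no window of the 10 genes and in 6.05% of all windows. RefSeq windows were found for 8 of the 10 genes, and those of H19 and Cdkn1c were not analysed here. The Peg3 window shares 263 bases with that of Usp29, a gene read from the opposite strand.

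Mature miRNAs from the lncRNA genes are shown because Mirg and its neighbours are known mainly as their hosts. The RefSeq table places 14 miRNA genes with 26 mature miRNAs inside Mirg, 3 genes with 6 inside Rian, 2 with 3 inside Meg3, 1 with 2 inside H19 and 1 with 2 inside Igf2. Capitals mark the seed, bases 2 to 8, which pairs with targets. The first pair below, both from Mirg, shares its seed, and the other miRNAs come from Meg3, Rian and H19 in that order.
mmu-miR-453: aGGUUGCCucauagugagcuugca
mmu-miR-496a-5p: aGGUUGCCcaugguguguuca
mmu-miR-770-5p: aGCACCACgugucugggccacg
mmu-miR-370-3p: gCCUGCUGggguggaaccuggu
mmu-miR-675-5p: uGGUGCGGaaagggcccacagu
Poly(A)-selected libraries do not measure mature miRNAs, and no level is given for them. The span from the start of Meg3 to the end of Mirg, 208.5 kb on chromosome 12, holds 59 annotated miRNA genes and 23 snoRNA genes on the same strand. Of these, 3 had any count, 1 read each in the 6 libraries together. The reads were for Mir433 in VSG 6, Mir453 in VSG 4 and Mir412 in VSG 5, and 12 exon bases of Mir412 are also exon bases of Mirg.

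Total counts ran from 23666809 to 24191778 in sham and from 22804397 to 23509921 in VSG libraries. Levels are given as CPM, the count scaled to the size of the library, after correction for composition (TMM factors), and as FPKM, CPM per kilobase of exon, wherever genes are compared with each other. The floor was set at 3 counts, or 0.111 to 0.143 CPM, and a gene with 3 counts or fewer in a library is said to be at the floor there. Differences are log2 fold changes of VSG against sham with their standard error (SE), and a gene was called different at an adjusted p under 0.05 in edgeR's quasi-likelihood test with Benjamini-Hochberg adjustment over all tested genes. Of 14454 tested genes, 2118 (14.7%) were called, 981 higher (6.79%) and 1137 lower (7.87%) after VSG. When libraries were scaled by total counts alone, the split was 486 higher and 1512 lower, and the median log2 fold change of all genes was -0.11 against 0.03. This number of calls rested on single libraries. It was 1214 (8.19%) without Sham 1, 797 (5.34%) without Sham 2, 159 (1.07%) without Sham 3, 1076 (7.32%) without VSG 4, 2732 (18.4%) without VSG 5 and 210 (1.42%) without VSG 6. The 6 hepatocyte markers (Alb, Apoa1, Ttr, Serpina1c, Cyp2e1 and Cps1) summed to between 48012 and 108860 CPM, by far the highest marker sum in every library.

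Among the 10 genes, Peg3 was about 4-fold higher in VSG livers and was the only one called, Meg3, Rian and Mirg were low in all sham livers and reached their highest values in VSG livers, with a wide spread between animals, and Igf2 and Dlk1 were at or near the floor in every liver. Igf2r, Cdkn1c and Plagl1 had lower means after VSG, and H19 varied more within the groups than between them. Of the 10 genes, 7 had enough counts for the test, and Mirg, Dlk1 and Igf2 did not. Of the 7, 1 was called, higher after VSG, against the 14.7% of all tested genes called in either direction. The VSG and sham libraries did not overlap in 4 of the 7, where 39.7% of all tested genes did not overlap. Of all genes, 8.38% were called without a filter, 22.7% with DESeq2, 12.9% with limma-voom, 14.3% with RLE size factors, 13.8% with total counts and 14.8% with at least 10 counts required in every library. Nothing is read from the counts for the 10 genes, since they were chosen with this contrast known.

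**Figure D1:**
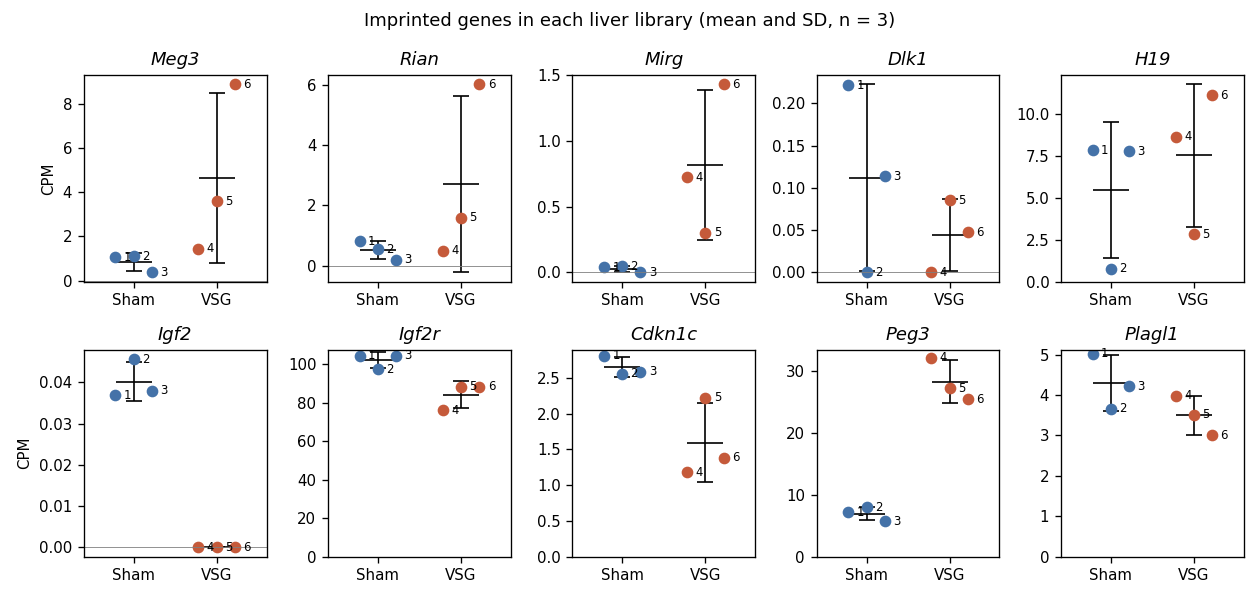
Level of each of the 10 imprinted genes in CPM (linear axis, own scale for each gene), with 1 point for each library, numbered as in the text, and the mean and SD of each group (n = 3) as horizontal lines and bars. The 3 VSG points for Peg3 lie between 25.4 and 32.2 CPM and the 3 sham points between 5.74 and 7.95, whereas the VSG points of Meg3 and Rian spread from near the sham values to the high value of VSG 6.

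Peg3 (chr7:6703892-6730431, minus strand), whose name stands for paternally expressed gene, was counted 195, 174 and 151 times in Sham 1 to 3 and 711, 638 and 533 times in VSG 4 to 6. The means were 6.96 ± 1.13 CPM for the sham and 28.3 ± 3.49 CPM for the VSG group (SD, n = 3). Every VSG library was above every sham library, and the lowest VSG value, 25.4 CPM in VSG 6, stood well above the highest sham value, 7.95 CPM in Sham 2. The log2 fold change was 2.02 (SE 0.161), or 4.07-fold. It ranged from 1.89 to 2.12 over the 12 other settings tried (other scaling, filters and tools, and leaving out each library in turn), and Peg3 was called in all 12. No exon base of Peg3 was shared with another gene. The genes next to Peg3 gave little signal. Usp29, a ubiquitin protease gene that starts beside Peg3 and shares most of the window shown above, was not counted once. Nor was Zfp264, which is annotated as a transcribed pseudogene. Such a result still permits up to 3 counts per library. Zim1, a zinc finger gene there, had 2, 2 and 0 counts in sham and 1, 2 and 0 in VSG libraries.

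Meg3 (chr12:109541001-109571726, plus strand) was counted 29, 24 and 10 times in sham and 32, 84 and 186 times in VSG libraries. These are 1.07, 1.10 and 0.380 CPM against 1.45, 3.59 and 8.87 CPM. The groups did not overlap, but VSG 4 lay closer to the sham libraries than to VSG 6. The means were 0.849 ± 0.407 CPM and 4.64 ± 3.82 CPM (SD, n = 3), with a log2 fold change of 2.45 (SE 0.719), and Meg3 was not called. It was called in 3 of the 12 other settings, with no filter, with DESeq2 and without VSG 4, and its log2 fold change ranged from 1.57 to 2.88.

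Rian (chr12:109603808-109661716, plus strand), the host of a large group of snoRNAs, was counted 22, 12 and 5 times in sham and 11, 37 and 126 times in VSG libraries. The groups overlapped, since VSG 4 was at 0.498 CPM and Sham 1 and Sham 2 at 0.813 and 0.548 CPM. The means were 0.517 ± 0.312 and 2.70 ± 2.92 CPM, with a log2 fold change of 2.37 (SE 0.939). Rian was called with DESeq2 only, in 1 of 11 other settings, and was removed by the requirement of 10 counts in every library. Its log2 fold change ranged from 1.01 to 2.87.

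Mirg (chr12:109729764-109749460, plus strand) was counted once in Sham 1, once in Sham 2 and not in Sham 3, which allows up to 3 counts there. In VSG 4, 5 and 6 it was counted 16, 7 and 30 times. All 3 VSG libraries were above the floor and all 3 sham libraries were not. The ratio of the summed counts, 53 in VSG against 2 in sham and scaled by library size, was 30.02 with an exact 95% interval of 7.91 to 254, which covers counting error only. Mirg did not pass the filter on low counts. It was tested in 5 of the other fits, called higher without a filter and without VSG 5, and not called without Sham 1, without Sham 2 and without Sham 3. The study's source data list Mirg among the changed lncRNAs picked from these same libraries, which is no independent evidence of its direction. The genes that share exon bases with Meg3, Rian or Mirg had 1 count in all.

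The 3 lncRNAs did not hold the same proportions in every library. Their summed counts were 52, 37 and 15 in Sham 1 to 3 and 59, 128 and 342 in VSG 4 to 6, or 1.92, 1.69 and 0.570 CPM against 2.67, 5.47 and 16.3 CPM. Mirg made up 1.92%, 2.70% and 0% of the summed counts in sham libraries, with exact binomial 95% intervals reaching up to 10.3%, 14.2% and 21.8%. In VSG 4 it made up 27.1% (16.4 to 40.3), in VSG 5 5.47% (2.23 to 10.9) and in VSG 6 8.77% (6.00 to 12.3). The share was thus higher in VSG 4 than in VSG 5 and VSG 6, beyond counting error, although VSG 4 had the lowest sum of its group. Meg3 gave most of the counts in each library, from 54.2% in VSG 4 to 66.7% in Sham 3.

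**Figure D2:**
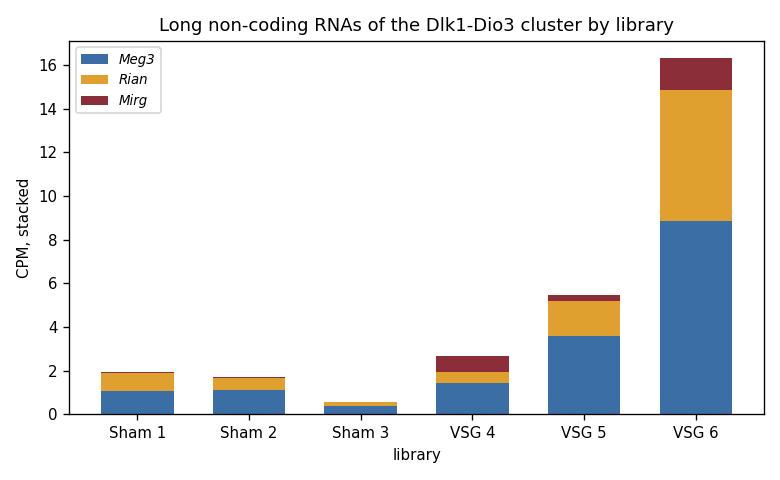
Stacked levels in CPM of Meg3, Rian and Mirg in each of the 6 libraries (1 bar for each library, axis from 0). The summed height is 0.570 to 1.92 CPM in sham and 2.67, 5.47 and 16.3 CPM in VSG 4, 5 and 6, and the Mirg part is visible in the VSG bars but hardly in the sham bars.

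The protein-coding side of the same region was close to silent. Dlk1 (chr12:109452823-109463336, plus strand) was counted 6, 0 and 3 times in sham and 0, 2 and 1 times in VSG libraries, so that 5 of the 6 libraries were at the floor and the groups overlapped. The ratio of VSG to sham, from 3 against 9 counts, was 0.378 with an exact interval of 0.0658 to 1.51. A difference was not detectable at this depth. Rtl1, a gene derived from a retrotransposon and needed in the placenta, had 1 count in all, in VSG 6. Begain, a gene for a synaptic protein at the edge of the region, had 1, 0 and 0 counts in sham and 1, 1 and 0 in VSG libraries. Dio3, the enzyme that inactivates thyroid hormone, had 1, 3 and 1 counts in sham and 0, 2 and 0 in VSG libraries. Dio3os, a lncRNA beside Dio3 that is read from the opposite strand without overlapping it, is not protein-coding. It had 5, 25 and 8 counts in sham and 0, 7 and 0 in VSG libraries, with overlap between the groups. None of these 4 neighbours passed the filter.

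The 5 tested genes whose profile over the 6 libraries was most like that of the summed Meg3, Rian and Mirg level were Fmn2, Olfr1034, Dpf1, Gm38372 and F830016B08Rik. Likeness was the root mean square difference of log2 CPM, each profile centred on its mean, and it was 0.539, 0.543, 0.581, 0.604 and 0.606 against a median of 1.47 over 14447 genes. Fmn2, a formin that nucleates actin filaments, had 27, 10 and 9 counts in sham and 19, 43 and 70 in VSG libraries. Olfr1034, an olfactory receptor gene, had 67, 75 and 40 counts in sham and 159, 199 and 307 in VSG libraries. All 5 were highest in VSG 6, which follows from choosing them by likeness to a profile that peaks there. With 6 libraries such likeness is a description only.

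H19 (chr7:142575529-142578143, minus strand) was counted 212, 17 and 205 times in sham and 191, 66 and 233 times in VSG libraries, or 7.83, 0.777 and 7.79 CPM against 8.64, 2.82 and 11.1 CPM. The groups overlapped, and each held a low library, Sham 2 and VSG 5. The means were 5.47 ± 4.06 and 7.53 ± 4.26 CPM (SD, n = 3), with a log2 fold change of 0.45 (SE 0.798). Without Sham 2 the log2 fold change was -0.06, so the direction rested on that library. The summed proliferation markers (Mki67, Top2a, Ccnb1 and Cdk1) were also lowest in Sham 2 and VSG 5, at 8.91 and 8.25 CPM against 13.8 to 98.3 CPM in the others. The summed bile duct and progenitor markers (Krt19, Krt7, Epcam, Sox9 and Spp1) were 57.7 and 73.4 CPM in Sham 2 and VSG 5 against 143 to 253 CPM in the others, but most of that sum was Spp1. Each of the 5 was lowest in Sham 2 within the sham group. Within the VSG group, Spp1 and Sox9 were lowest in VSG 5, Krt19 and Krt7 were highest there, at 0.684 and 0.556 CPM, and Epcam was at 1.24 CPM in both VSG 5 and VSG 6 and 1.63 CPM in VSG 4. Sox9 in VSG 5, at 17.9 CPM, was still above every sham library (5.57 to 10.3 CPM). The part of these cells in the H19 level was not tested.

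Igf2 (chr7:142650766-142666816, minus strand) had 1 count in each sham library and none in the VSG libraries, all within the floor, so that no fold is given. Of its exon bases, 3596 (62.8%) are shared on the same strand with Gm49394, which had no count, and how reads in the shared part were counted was not stated. Igf2os, its antisense transcript, had 1, 1 and 3 counts in sham and none in VSG libraries, and Ins2, an insulin gene next to it, had no count. Igf2 lies 72.6 kb from H19, which had at least 191 counts in 4 of the 6 libraries.

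Igf2r (chr17:12682406-12769664, minus strand) was counted 2828, 2133 and 2753 times in sham and 1682, 2065 and 1853 times in VSG libraries. The means were 102 ± 4.08 and 84.3 ± 7.06 CPM (SD, n = 3), the groups did not overlap, and the log2 fold change was -0.28 (SE 0.102). Igf2r was not called in any of the 13 fits, with log2 fold changes from -0.42 to -0.21. The antisense lncRNA Airn, which overlaps the Igf2r gene body from the opposite strand and silences Igf2r on the paternal chromosome in many tissues, had 151, 48 and 88 counts in sham and 50, 48 and 65 in VSG libraries. Its log2 fold change was -0.59 (SE 0.369, adjusted p = 0.298, edgeR's quasi-likelihood test). The strand setting of the counting was not stated, and without it reads of Airn and of Igf2r introns cannot be told apart. Slc22a3, an organic cation transporter of the same region, had means of 13.6 ± 1.30 CPM (sham) and 8.72 ± 2.66 CPM (VSG), with a log2 fold change of -0.64 (SE 0.237, adjusted p = 0.111, edgeR). Slc22a2, a related transporter, had no count.

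Cdkn1c (chr7:143458339-143461050, minus strand) was counted 76, 56 and 68 times in sham and 26, 52 and 29 times in VSG libraries. The sham libraries were close together at 2.65 ± 0.137 CPM, and the VSG libraries were lower and more spread at 1.59 ± 0.554 CPM (SD, n = 3), with VSG 5 nearest to sham at 2.22 CPM. The groups did not overlap, the log2 fold change was -0.73 (SE 0.282), and Cdkn1c was called only in the fit without VSG 5, in 1 of 12 other settings. On the opposite strand, 30.7% of its exon bases lie in Gm44732, which had 2 counts in all.

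The Kcnq1 region, to which Cdkn1c belongs, held 9 further listed genes, of which 7 were tested and 4 passed, against 14.7% of all tested genes. Kcnq1ot1, the paternal lncRNA that silences genes of this region, rose from 5.90 ± 2.12 to 19.02 ± 7.99 CPM, with 214, 134 and 97 counts in sham and 598, 259 and 397 in VSG libraries. Its log2 fold change was 1.69 (SE 0.392, adjusted p = 0.0354 in edgeR's quasi-likelihood test). The call was lost in 6 of 12 other settings, with limma-voom and without Sham 1, Sham 2, Sham 3, VSG 4 or VSG 6, with adjusted p-values over the 12 settings from 0.000478 to 0.126. Kcnq1ot1 lies within Kcnq1 on the opposite strand, and the strand caveat given for Airn applies. A link between the level of Kcnq1ot1 and the other genes of this region was not tested. Slc22a18, a transporter gene next to Cdkn1c, fell from 64.4 ± 1.48 to 37.3 ± 4.26 CPM, with a log2 fold change of -0.79 (SE 0.105, adjusted p = 0.0101, edgeR). Cd81, a tetraspanin found on many cell types, fell from 364 ± 71.0 to 177 ± 22.2 CPM, with a log2 fold change of -1.05 (SE 0.186, adjusted p = 0.0195, edgeR). Osbpl5, an oxysterol-binding protein family gene, fell from 13.4 ± 6.74 to 2.23 ± 0.849 CPM, with a log2 fold change of -2.58 (SE 0.467, adjusted p = 0.0204, edgeR). In these last 3 genes every VSG library was below every sham library. Slc22a18 was called in 10 of 12 other settings, not without Sham 3 or VSG 6, with an adjusted p of at most 0.0582. Cd81 was called in 9, not without Sham 2, Sham 3 or VSG 6, and Osbpl5 in 9, not without Sham 3, VSG 4 or VSG 6, with adjusted p-values of at most 0.0927 and 0.0893 in edgeR. The channel gene Kcnq1 had a log2 fold change of -0.51 (SE 0.288), Tssc4 of -0.15 (SE 0.145) and Nap1l4, a histone chaperone, of -0.18 (SE 0.108), and none of them was called. Phlda2, a brake on placental growth, had 3, 0 and 4 counts in sham and 0, 3 and 4 in VSG libraries, and Ascl2, a transcription factor of the placenta, had none.

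Plagl1 (chr10:13060504-13131694, plus strand), a transcription factor whose targets include other imprinted genes, was counted 136, 80 and 111 times in sham and 88, 82 and 63 times in VSG libraries. The means were 4.30 ± 0.687 and 3.50 ± 0.488 CPM (SD, n = 3), the groups overlapped, and the log2 fold change was -0.30 (SE 0.201). Plagl1 was called in none of the 13 edgeR, DESeq2 and limma-voom fits.

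Per exon base, the levels of the 10 genes differed widely. In sham livers Igf2r was highest at 10.98 ± 0.439 FPKM, followed by H19 at 2.22 ± 1.65, Cdkn1c at 1.30 ± 0.0671, Plagl1 at 0.550 ± 0.0879 and Peg3 at 0.511 ± 0.0827 FPKM (SD, n = 3). Meg3 at 0.0469 ± 0.0225, Dlk1 at 0.0198 ± 0.0196 and Rian at 0.0162 ± 0.00977 FPKM came next, with Igf2 and Mirg at floor counts. Dlk1 was also at the floor in Sham 2 and Sham 3, so its place next to Rian is not a ranking. H19 and Cdkn1c overlapped between sham libraries, as did Plagl1 and Peg3, Meg3 and Dlk1, and Dlk1 and Rian, whereas Igf2r stood above H19, Cdkn1c above Plagl1 and Peg3 above Meg3 in every sham library. In VSG livers the order was Igf2r at 9.05 ± 0.758, H19 at 3.06 ± 1.73, Peg3 at 2.08 ± 0.256, Cdkn1c at 0.782 ± 0.272, Plagl1 at 0.447 ± 0.0625, Meg3 at 0.256 ± 0.211, Mirg at 0.112 ± 0.0784 and Rian at 0.0843 ± 0.0913 FPKM. Peg3 thus stood above Cdkn1c in every VSG library and below it in every sham library. H19 and Peg3 overlapped between VSG libraries, and so did Plagl1 and Meg3, Meg3 and Mirg, and Mirg and Rian, whereas Cdkn1c stood above Plagl1 in every VSG library.

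**Figure D3:**
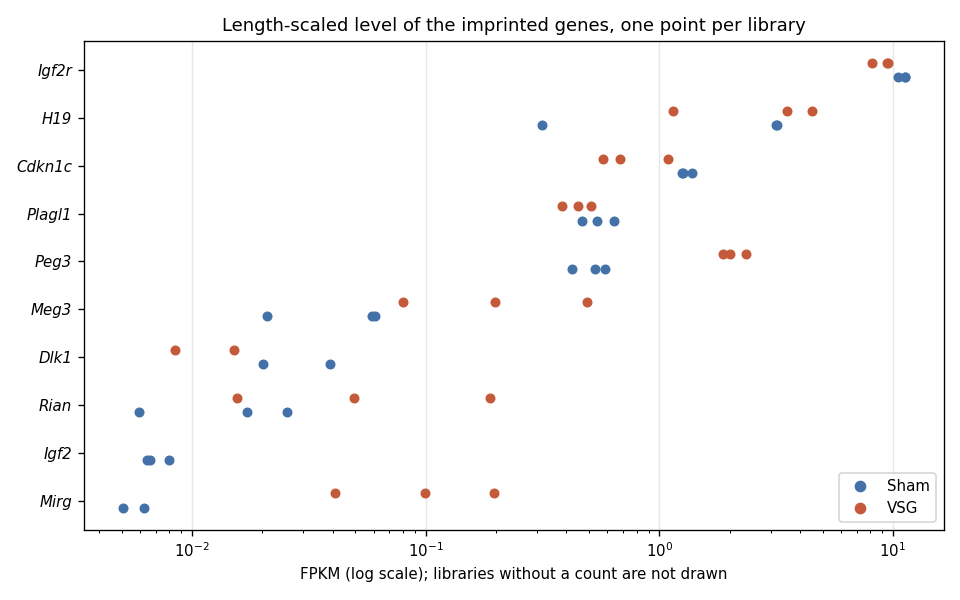
Length-scaled level (FPKM, log axis) of the 10 imprinted genes, with 1 point for each library in which the gene had a count, ordered by the sham mean. Igf2r lies near 10 FPKM, Peg3 moves from a mean of 0.511 in sham to 2.08 FPKM in VSG livers, and Mirg and Igf2 are lowest in sham livers.

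Beyond the 10 genes, 63 further imprinted mouse genes were listed, of which 62 were in the table and 37 could be tested. Whether the listed genes are imprinted in liver was not tested, since the counts do not separate the parental copies. The shares below thus describe a list of genes and not imprinted expression in this tissue. Of the 37, 11 passed the test, 3 higher and 8 lower after VSG, or 29.7% against 14.7% of all tested genes. Their median log2 fold change was -0.18, against 0.03 for all tested genes, and 20 of the 37 did not overlap between the groups, against 39.7% of all tested genes. With total counts as the scale 1 was higher and 8 were lower. The number of calls rested on single libraries and was 5 without Sham 1, 2 without Sham 2, 0 without Sham 3, 3 without VSG 4, 10 without VSG 5 and 1 without VSG 6. In the edgeR fit without Sham 3, 15 of the 37 had an unadjusted p under 0.05, and in the edgeR fit with all libraries 20 did. The share of all tested genes under that cut was not taken, so nothing is read from these 2 counts. Of the 62 genes, 19 were at the floor in every library, 9 of them with no count.

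Outside the regions of the 10 genes, Ppp1r9a, an actin-binding scaffold protein gene, rose from 13.9 ± 4.57 to 31.1 ± 5.93 CPM, with a log2 fold change of 1.16 (SE 0.269, adjusted p = 0.0354, edgeR). H13, a signal peptide peptidase, rose from 74.2 ± 2.41 to 99.3 ± 11.00 CPM, with a log2 fold change of 0.42 (SE 0.109, adjusted p = 0.0469, edgeR). Ndn, a growth suppressor of the Prader-Willi region, fell from 0.995 ± 0.0944 to 0.297 ± 0.113 CPM, with a log2 fold change of -1.72 (SE 0.345, adjusted p = 0.0260, edgeR). Snrpn, a splicing factor gene of the same region, fell from 7.77 ± 0.422 to 3.31 ± 1.27 CPM, with a log2 fold change of -1.23 (SE 0.273, adjusted p = 0.0323, edgeR). Gnas, the stimulatory G protein subunit, fell from 409 ± 22.9 to 275 ± 16.2 CPM, with a log2 fold change of -0.57 (SE 0.121, adjusted p = 0.0291, edgeR). Copg2, a subunit of the COPI coat, and Trappc9, a vesicle tethering protein, fell by 0.47 and 0.49 on the log2 scale, with adjusted p-values of 0.0268 and 0.0391 in edgeR. These calls were lost in 4 to 8 of the other settings for each of the 7 genes, most often for H13, called in 4 of 12. All 7 calls were lost without Sham 2 and without Sham 3. Those kept were Ppp1r9a and Copg2 without Sham 1, Ppp1r9a without VSG 4, Snrpn without VSG 6, and Copg2, Gnas, Ndn, Trappc9 and H13 without VSG 5. Peg10, a retrotransposon-derived gene, had a log2 fold change of 1.36 (SE 0.435, adjusted p = 0.0791, edgeR) and its neighbour Sgce of 0.58 (SE 0.193, adjusted p = 0.0884, edgeR).

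**Figure D4:**
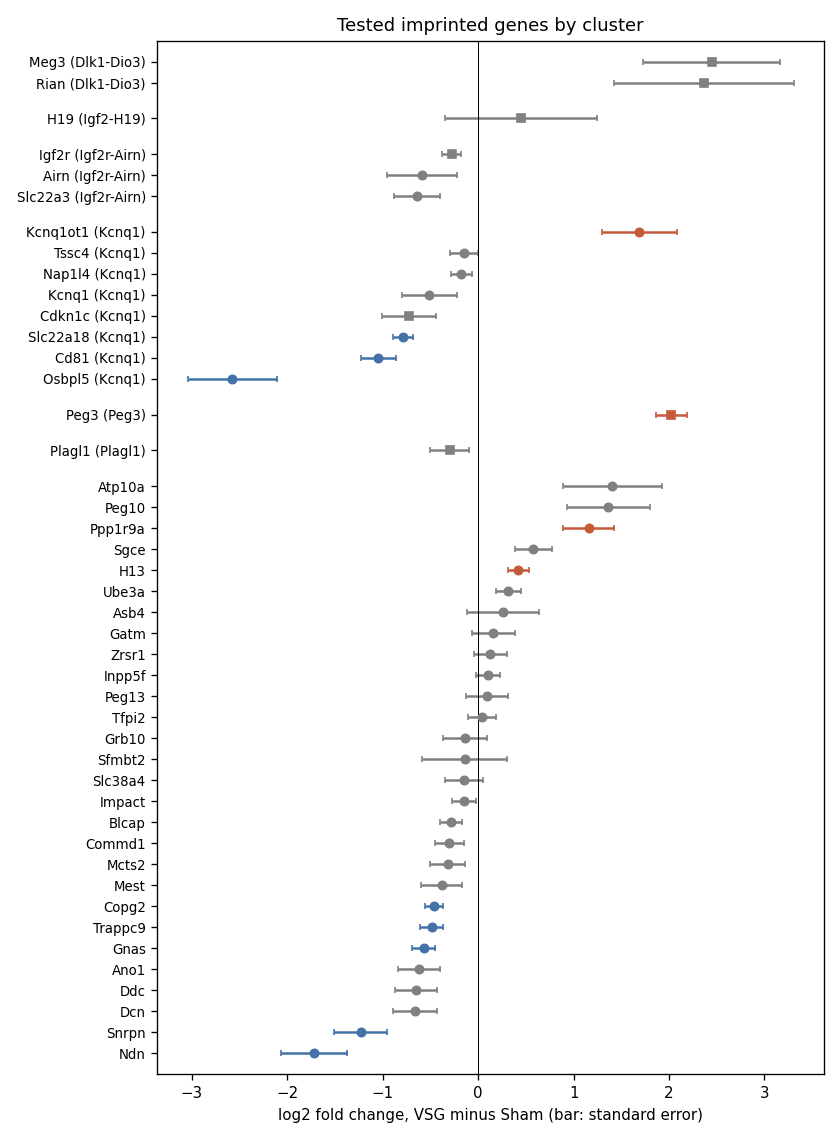
Log2 fold change of VSG against sham with its SE for the 7 tested genes of the 10 (squares) and the 37 other tested imprinted genes (circles), ordered by region. Red and blue mark genes called higher or lower at an adjusted p under 0.05, grey the others, and Peg3 at 2.02 and Osbpl5 at -2.58 are the called genes farthest from 0 in each direction.

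Partners of the IGF pathway, fetal liver genes and factors that maintain or read imprints were listed as a further 20 genes, of which 17 could be tested and 1 passed, higher after VSG, or 5.88% against 14.7% of all tested genes. That gene was Dnmt3b, a DNA methyltransferase that sets new methyl marks, which rose from 1.45 ± 0.189 to 3.91 ± 1.08 CPM, with a log2 fold change of 1.43 (SE 0.262, adjusted p = 0.0211, edgeR). The call was lost without Sham 1, Sham 2, Sham 3 or VSG 6, which left 0 calls by edgeR among the 17, with 2, 6, 1 and 1 unadjusted p-values under 0.05. The share of all tested genes with an unadjusted p under 0.05 was not taken, so nothing is read from such counts in these lists. Without VSG 5, 2 of the 17 were called, Dnmt3b and Spink1, against 18.4% of all tested genes. Of the 4 IGF partners, Igf1, the main circulating growth factor made by the liver, had a log2 fold change of 0.46 (SE 0.207), its receptor Igf1r of 0.51 (SE 0.241), the insulin receptor Insr of 0.27 (SE 0.168) and the RNA-binding protein Igf2bp2 of -0.34 (SE 0.221). None of the 4 was called by edgeR, DESeq2 or limma-voom, and 0 had an unadjusted p under 0.05 in edgeR and 1 in DESeq2. Of the 6 fetal liver genes, Igf2bp1, Igf2bp3 and Lin28b were at the floor in every library. Alpha-fetoprotein (Afp), which falls in mouse liver after birth along with H19, had a mean of 1.99 ± 0.786 CPM in the sham group and 1.22 ± 0.329 CPM in the VSG group. Its log2 fold change was -0.71 (SE 0.381). Gpc3, a glypican, was at 0.946 ± 0.543 and 1.47 ± 0.508 CPM, with a log2 fold change of 0.64 (SE 0.510), and Spink1, a trypsin inhibitor, at 0.340 ± 0.259 and 1.92 ± 1.87 CPM, with a log2 fold change of 2.44 (SE 0.976). These 3 tested fetal genes included 0 calls and 1 unadjusted p under 0.05 in edgeR, and 0 calls in DESeq2 and limma-voom. Zhx2 and Zbtb20, repressors of Afp in adult liver, had log2 fold changes of 0.14 (SE 0.0886) and 0.52 (SE 0.207), and Trim28, a corepressor that protects imprints, of 0.03 (SE 0.0833). With total counts as the scale the values of Zhx2 and Trim28 were below 0.

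Marker genes of other cells differed between the same libraries. The 5 neutrophil precursor markers (Mpo, Elane, Prtn3, Ctsg and Ms4a3) summed to 0.266 to 1.15 CPM in sham and to 271, 29.1 and 166 CPM in VSG 4, 5 and 6, and each of the 5 did not overlap between the groups. Ms4a3 was at 0 counts in every sham library. In the same order of libraries, Peg3 was at 32.2, 27.3 and 25.4 CPM, the summed Meg3, Rian and Mirg level at 2.67, 5.47 and 16.3 CPM, Mirg alone at 0.724, 0.299 and 1.43 CPM and Kcnq1ot1 at 27.1, 11.1 and 18.9 CPM. The 9 stellate cell markers summed to 749 to 1045 CPM in sham and 337 to 674 CPM in VSG libraries, and 5 of the 9 did not overlap between the groups. Of the markers, Dcn is also one of the 63 other imprinted genes. The 4 Kupffer cell markers (Clec4f, Vsig4, Timd4 and Cd5l) summed to 221 to 462 CPM in sham and 439 to 1028 CPM in VSG libraries, and 3 of the 4 did not overlap between the groups. These 3, Clec4f, Vsig4 and Timd4, were higher after VSG, with adjusted p-values of 0.0260, 0.0405 and 0.0216 in edgeR, while Cd5l, which made up most of the sum, overlapped. Sums of 5 sinusoidal endothelium, 5 mesothelium, 6 blood stem and progenitor cell and 5 erythroid markers overlapped between the groups. The 4 pancreatic acinar markers summed to 8.24 to 9.23 CPM in sham and 3.91 to 5.77 CPM in VSG libraries, with 2 of the 4 at the floor everywhere and nearly all of the sum from Cela1 alone, and the 3 adipocyte markers were at the floor in every library. The part of these cells in the imprinted gene values was not tested.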

How the data were processed

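Liver RNA of 3 sham and 3 VSG mice was analysed, grouped by the sample titles. The authors deposited raw counts of reads for each gene. As their methods and processing notes describe, they made strand-specific poly(A) libraries, checked reads with FastQC 0.10.1, aligned them to mm10 with STAR 2.6.0 and counted them with featureCounts, for which the notes give version 2.0.3 and the methods another release. Not given in the sources used here were the annotation release, how strand was used and what was done with multi-mapping reads, so that antisense and overlapping genes are uncertain. The exon length of each gene, also deposited, entered FPKM only.

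Of 55385 genes, 54487 matched GENCODE M21 by identifier and version and 241 did not match without the version either. Symbols come from that match. Among the 10 genes, Rian and Peg3 were matched without the version, and so were Airn, Begain, Gnas and Trappc9 among the other listed genes named here. Coordinates are those of the deposited table (mm10). Genes kept by filterByExpr with a minimum count of 10 and a minimum total of 15 went into edgeR 4.0.16 under R 4.3.3 (TMM factors 0.897 to 1.15, glmQLFit and glmQLFTest, group as the only term, Benjamini-Hochberg adjustment). The SE of a log2 fold change comes from this fit. Intervals of shares and ratios are exact 95% intervals and, like the floor of 3 counts, cover counting error only. The likeness of profiles used log2 CPM with a prior count of 2. Libraries of a group differed by a chi-square of at least 25.2 for each degree of freedom, far above counting noise, so none was taken as a repeat of another.

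Alternatives were RLE size factors, total counts alone, a filter of only 1 count, a filter of 10 counts in each library, DESeq2 1.42.0, limma-voom (limma 3.58.1) and leaving out each library. The genes, gene lists and marker lists were chosen with earlier results of these data known. Named genes were the 10, listed genes with an adjusted p under 0.05, listed neighbours of the 10, the 5 nearest profiles, and the 3 small RNA genes of highest count. Any other gene was named after its values were seen. For 3 libraries a group the smallest two-sided p of an exact permutation test is 0.1, and no such test was used. Each library came from 1 animal, as the study's methods state.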

Additional observations from a re-analysis of the deposited data

How the results depend on the processing

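The calls depended on single libraries and on the tool. Over all genes, 2118 calls became 3288 with DESeq2 and ranged from 159 (without Sham 3) to 2732 (without VSG 5) when a library was left out, which leaves 2 libraries against 3. Among the 10 genes, the 1 call became 3 without a filter (Meg3, Mirg and Peg3), 3 with DESeq2 (Meg3, Rian and Peg3) and 1 to 3 when a library was left out, with Meg3 added without VSG 4, and Mirg and Cdkn1c without VSG 5. Among the other imprinted genes, 11 calls became 0 to 10 when a library was left out and 9 to 14 under the other settings. Among the IGF, fetal liver and imprint factor genes, 1 call became 0 to 2 when a library was left out. The log2 fold change of H19 turned to -0.060 without Sham 2, within a range up to 0.82 without VSG 5. Among 41 tested genes that the report names, direction changed also for Trim28, a gene near 0, to -0.11 with total counts, -0.0015 with no filter and between -0.031 and 0.055 when a library was left out, and for Zhx2, to -0.0031 with total counts. In all, 409 refits of these genes kept direction and side of the threshold, 63 lost the call, 8 gained it and 6 changed direction. No paired analysis was possible because the labels number sham animals 1 to 3 and VSG animals 4 to 6, with no number in common. The causes of these shifts were not tested, except that a fit without a library has fewer samples. Depth limits Dlk1, Igf2 and Mirg, which are at or near the floor in sham livers, and Meg3 and Rian, with 5 to 29 counts in sham livers.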
